A study of Mus musculus with 14 samples.

Results

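The cytosolic ribosomal protein genes were taken by symbol from the platform annotation of the arrays. A member had to be named Rpl or Rps with a digit and at most an a, x, y or l suffix, or be Rplp0, Rplp1, Rplp2 or Rpsa, and it had to have a probe set naming no other gene. This gave 64 of 22180 genes, 40 of the large and 24 of the small ribosomal subunit. The rule itself used no measured value, though it was set with earlier results of these data known. Where a gene had several such probe sets, the one brightest on average was read, as the log2 of the deposited intensity. The testis paralog Rpl10l lay below the limit on dim genes (log2 6.25) at 4.29 ± 0.074 in K289R and 4.29 ± 0.14 in WT jejunum (SD, n = 7 each), which left 63 members among 18010 genes tested. RefSeq's gene table lists 62 of the 64 as protein coding, Rpl6l as a pseudogene and Rps4l as a transcribed pseudogene. A further 12 symbols of the same form, Rpl13a and Rps2 among them, occurred only in probe sets that name several genes and were used in an alternative.

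The arrays came from the jejunum of 7 mice labelled LRH-1 K289R and 7 labelled LRH-1 WT, which were 19 to 21 weeks old, ate freely and were killed at 7 am. LRH-1, the product of Nr5a2, is a nuclear receptor of liver and intestine, and K289R puts an arginine in place of a lysine that accepts the modifier SUMO. The labels call the samples biological replicates. They do not state strain, sex or how the allele was made.

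The arrays had median intensities of 168 to 174 and correlated with each other at 0.979 to 0.994, and they do not read the substitution itself. The distal small intestine gene Fabp6 was high (log2 9.18 to 12.52) on 4 arrays, K289R replicates 2 and 7 and WT replicates 1 and 6, and at most 6.63 on the rest. K289R replicate 5 stood apart for many ribosomal protein genes, and values that it moves by a large factor are also given without it. Without the 4 arrays high in Fabp6, 49 of 63 members had lower means in K289R, with a median difference of −0.067.

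A cytosolic ribosome joins ribosomal RNA with a single copy of nearly every ribosomal protein, so the subunits need these proteins in matched amounts. Most of their mRNAs begin with a C followed by an unbroken stretch of pyrimidines, the TOP motif, through which the kinase complex mTORC1 and the protein Larp1 set how well they are translated. In the small intestine ribosome production is known to be high in the dividing crypt cells that renew the epithelium.

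The sequence at the start of the gene was not used in the choice by symbol. RefSeq start windows (assembly GRCm38.p6) were found for 49 of the 64 members, 58 windows in all. Shown here are 20 bases before to 20 bases after the annotated first base of some of the members described with the results. Rpl3l and Rpl39l, paralogs of Rpl3 and Rpl39, are among them. Capitals mark the longest run of C and T in each window.
Rpl7a (chr2:26910787-26910826, plus strand): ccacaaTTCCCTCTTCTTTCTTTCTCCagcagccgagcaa
Rpl35 (chr2:39005112-39005151, minus strand): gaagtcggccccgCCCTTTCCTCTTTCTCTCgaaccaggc
Rpl38 (chr11:114668560-114668599, plus strand): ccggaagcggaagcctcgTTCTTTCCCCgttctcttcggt
Rpl13 (chr8:123102330-123102369, plus strand): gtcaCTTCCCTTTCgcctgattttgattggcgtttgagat
Rplp2 (chr7:141447631-141447670, plus strand): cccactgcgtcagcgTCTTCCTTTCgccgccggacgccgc
Rps9 (chr7:3704021-3704060, plus strand): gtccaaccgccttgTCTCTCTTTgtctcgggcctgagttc
Rps6 (chr4:86857348-86857387, minus strand): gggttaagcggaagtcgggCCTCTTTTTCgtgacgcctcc
Rplp0 (chr5:115559447-115559486, plus strand): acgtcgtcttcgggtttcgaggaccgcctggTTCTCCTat
Rpl3l, the first of 2 windows (chr17:24727806-24727845, plus strand): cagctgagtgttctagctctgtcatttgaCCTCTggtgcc
Rpl39l (chr16:10170208-10170247, plus strand): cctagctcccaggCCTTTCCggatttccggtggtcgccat

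In Rpl7a the run spanned 21 bases and in Rpl35 18 bases, and in Rpl38, Rpl13, Rplp2 and Rps6 it spanned 10. The run of the paralog Rpl3l was 5 bases long and those of Rpl39l and Rplp0 were 7. The median longest run was 7 bases in member windows and 5 in all windows, so the sequences shown lean to long runs. Among members not shown, the run was 3 bases in Rpl41, 4 in Rps4x, 5 in Rpsa and 6 in Rpl6, but 20 in Rpl27a and 11 in Rps12. A run of at least 8 bases was present in 26 of the 58 member windows (44.8%), against 16.0% of all 32851 windows. A run could lie anywhere in the 40 bases and need not begin at the first base, so these shares do not count TOP motifs. The letters CTTTC, read on the sense strand in the same 40 bases, were present in 24.1% of member windows, against 5.49% of all windows and 4.78% of the 17331 windows of genes tested. Rpl35, Rpl38, Rpl13, Rplp2, Rpl7a and Rpl39l carry them among the sequences shown. In the whole window of 250 bases before to 50 after the start, searched on both strands, CCGGAAG, a core of the ETS factor site, was present in 37.9% of member windows, against 8.86% of all windows and 13.0% of those of genes tested. AANATGGC, the core bound by YY1, was present in 13.8%, against 6.05% and 6.77%. The GC box GGGCGG was present in 48.3% of member windows, which was above the 35.7% of all windows and below the 52.8% of those of genes tested. TATAA within 40 to 15 bases before the start was present in 6.90% of member windows, 3.52% of all windows and 3.31% of those of genes tested, and in 1 member window motifs overlapped. A match is a description of the letters and not of a bound site.

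K289R was then set against WT to ask whether jejunal transcript levels of the ribosomal proteins differ when the lysine is altered. No member passed the test. Of the 63 members 54 had a lower mean in K289R and 9 a higher one, and the differences were small, with a median of −0.063 on the log2 scale, a fold of 0.957. The median over all 18010 genes tested was −0.0039. Differences ran from −0.24 in Rps4l to 0.17 in Rplp2, and 44 of the 63 were under 0.1 in size. Each difference had a standard error of 0.041 to 0.112, with a median of 0.065.

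With limma and Benjamini-Hochberg adjustment over all genes, 0 of 63 members had an adjusted p under 0.05, where the share of all genes was 0.0444% in either direction and 0.0278% for lower means. The lowest adjusted p of a member was 0.306, in Rps29. At an unadjusted p under 0.05 there were 6 members (9.52%), all with lower means in K289R, and the share of all genes was 8.48% in either direction, 4.05% for lower and 4.43% for higher means. A lower mean in K289R was found for 85.7% of members and for 52% of all genes. No member had genotypes that did not overlap, which held for 0.167% of all genes. The 95% interval of the difference lay within 0.35 log2 of 0 for 61 of the 63 members, and over all members it reached from −0.48 to 0.35. The p-values measure the spread between these mice. In whole tissue, fewer cells of a type and less RNA per cell cannot be told apart. The mouse genome holds many processed copies of ribosomal protein genes, and how far the probe sets separate them was not tested.

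**Figure D1:**
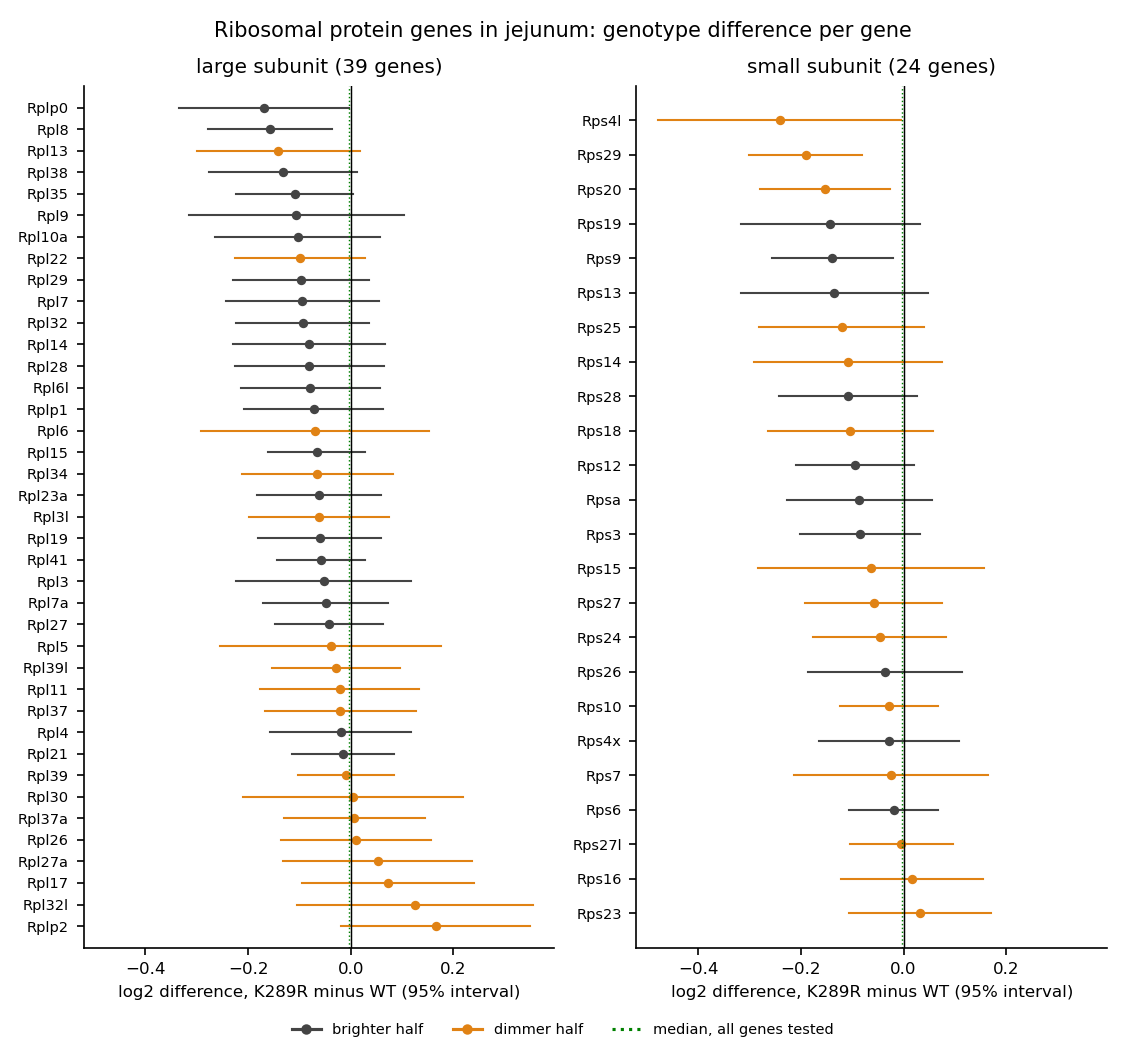
Difference of each of the 63 tested ribosomal protein genes, K289R minus WT on the log2 scale (x axis), with its 95% interval. The large subunit is on the left and the small on the right, dark points are the 32 brighter members and orange points the 31 dimmer ones, and the dotted line is the median of all genes. Every one of the 32 brighter members lies left of 0, and 9 dimmer members lie right of it.

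The small subunit held 4 of the 6 members with an unadjusted p under 0.05. Of its 24 members 22 had lower means in K289R, with a median difference of −0.085. Rps29, a zinc-binding protein of the small subunit head, lay at 6.50 lowest, 6.59 median and 6.73 highest on the K289R arrays, against 6.72, 6.77 and 6.91 on the WT arrays. Of the 7 K289R arrays 6 lay below the lowest WT array, and the genotypes overlapped only through the highest K289R array. Its difference was −0.19 ± 0.052 (SE), with an adjusted p of 0.306 in limma and an exact permutation p of 0.00117 (2-sided, unadjusted). Its levels are close to the limit on dim genes, and no second probe set of the gene was in use.

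Rps20, also of the head, had levels of 6.62, 6.77 and 6.88 in K289R (lowest, median, highest) and 6.66, 6.96 and 7.00 in WT. The low WT value came from replicate 4, and the other WT arrays, at 6.89 to 7.00, were all above the highest K289R array. The difference was −0.15 ± 0.060 (adjusted p 0.486 in limma), and a second, dimmer probe set of the gene gave 0.0056. Rps9, counterpart of the bacterial protein S4 that starts the assembly of the small subunit body, had levels of 9.95, 10.13 and 10.23 in K289R and 10.17, 10.20 and 10.36 in WT. Of the 7 K289R arrays 4 lay below the lowest WT array, and the others overlapped with WT. The difference was −0.14 ± 0.056 with an adjusted p of 0.498 in limma and an exact permutation p of 0.0262, and its second probe set gave −0.11.

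Rps4l is the transcribed pseudogene. Its levels were 7.38, 8.05 and 8.25 in K289R and 8.03, 8.15 and 8.49 in WT, with the low value on K289R replicate 7 alone. Its difference of −0.24 ± 0.112 was the largest downwards of any member (adjusted p 0.575 in limma) and was −0.14 without that array. Rps19, the gene most often mutated in human Diamond-Blackfan anaemia, differed by −0.14 ± 0.083 and Rps12 by −0.094 ± 0.054, with adjusted p of 0.639 for both. The genotypes overlapped in both genes. Rps6, whose phosphorylation by the S6 kinases is a common readout of mTORC1, had one of the smallest spreads within genotypes (SD 0.049) and differed by −0.019 ± 0.041. Rpsa, which also binds laminin as a receptor, had levels of 11.08, 11.47 and 11.54 in K289R and 11.38, 11.52 and 11.55 in WT. Its difference was −0.087 ± 0.067.

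In the large subunit 32 of 39 tested members had lower means in K289R, with a median difference of −0.061. Rpl8, which lies close to the peptidyl transferase centre, had levels of 11.03, 11.30 and 11.36 in K289R and 11.33, 11.39 and 11.55 in WT. Of the K289R arrays 5 of 7 lay below the lowest WT array and all 7 lay below the WT mean. The difference was −0.16 ± 0.057, with an adjusted p of 0.450 in limma and an exact permutation p of 0.00408. Rpl38, known from the Tail-short mouse, in which translation of Hox mRNAs is altered, differed by −0.13 ± 0.069, with levels of 11.87 to 12.32 in K289R and 12.06 to 12.42 in WT. Rpl13 differed by −0.14 ± 0.075. Rpl35, at the exit of the peptide tunnel, had levels of 12.08, 12.30 and 12.39 in K289R and 12.28, 12.37 and 12.50 in WT, and differed by −0.11 ± 0.054 (adjusted p 0.604 in limma). Its other probe sets, both much dimmer, gave 0.061 and 0.077.

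The stalk of the large subunit, to which translation factors bind, is built of Rplp0, Rplp1 and Rplp2. Rplp0, its base, had levels of 11.04, 11.47 and 11.52 in K289R and 11.43, 11.50 and 11.61 in WT. The 2 lowest values, 11.04 and 11.06, came from K289R replicates 3 and 5. A further K289R array, at 11.34, was also below the lowest WT array, and the other 4 overlapped with WT. Its difference was −0.17 ± 0.079 (adjusted p 0.578 in limma). Rplp1 differed by −0.072 ± 0.064. Rplp2 had the largest difference upwards, 0.17 ± 0.087 (adjusted p 0.609 in limma), with levels of 6.48, 6.69 and 6.93 in K289R and 6.31, 6.50 and 6.87 in WT. That value rests on a dim probe set, and the brighter one that also names other genes gave −0.090 ± 0.049.

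**Figure D2:**
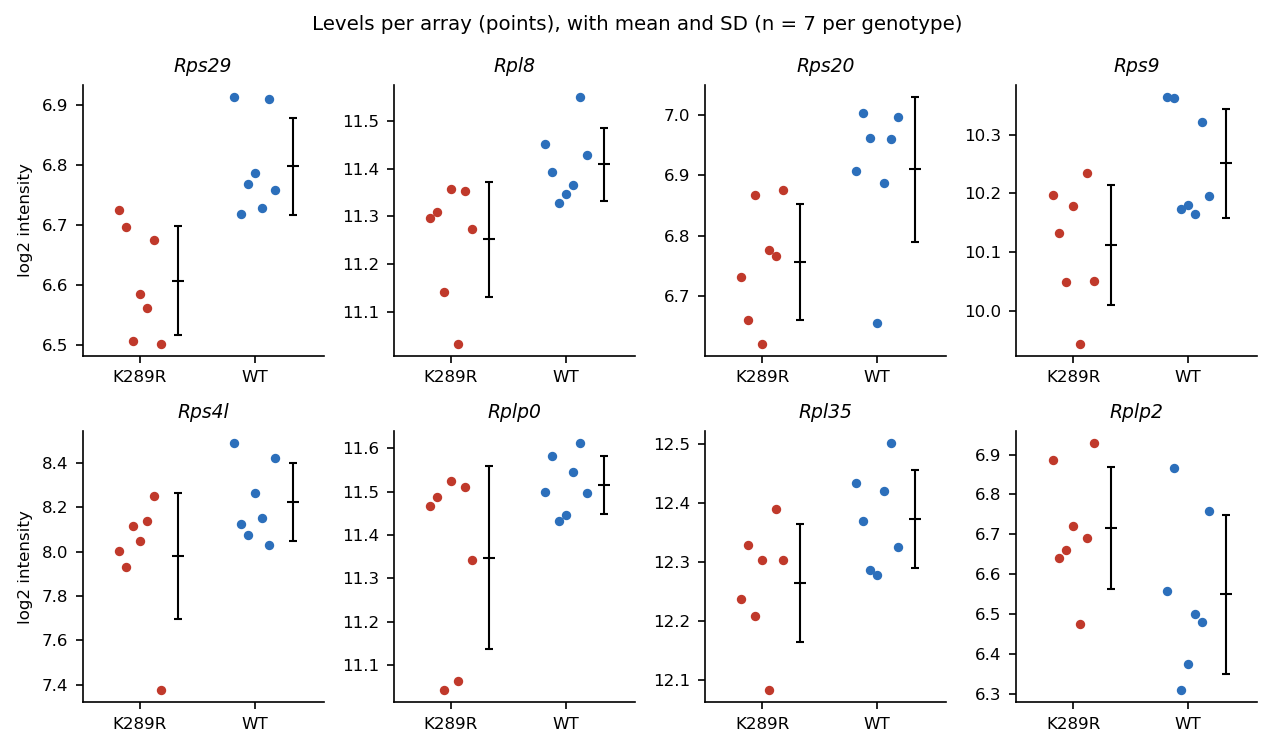
Log2 level on each array (points, y axis) of 8 members, with K289R left of WT in each panel, and the mean and SD of 7 arrays beside the points. The y axes differ and do not start at 0. Rps29 and Rpl8 show most K289R points below the WT points, Rplp0 has 2 low K289R points, and Rplp2 has the higher K289R mean.

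Among the other members with higher means in K289R were Rpl32l (0.12 ± 0.109), Rpl17 (0.073 ± 0.079) and Rpl27a (0.053 ± 0.087). The 95% interval of each included 0. On the brighter probe set that also names other genes Rpl27a turned to −0.048 ± 0.060, and so did Rpl26 (−0.13 ± 0.061), Rpl37a (−0.10 ± 0.067) and Rps16 (−0.058 ± 0.063), which on their own probe sets were at 0.010, 0.0073 and 0.016. Rpl30 moved to −0.00031, against 0.0045 on its own probe set. The paralogs Rpl3l, known from striated muscle, and Rpl39l, known from testis, differed by −0.061 ± 0.065 and −0.028 ± 0.059. The p53 target Rps27l differed by −0.0042 ± 0.047, X-linked Rps4x by −0.028 ± 0.065 and the pseudogene Rpl6l by −0.078 ± 0.064. The most even members within genotypes beside Rps6 were Rpl41, the smallest ribosomal protein (SD 0.046), and Rpl39 (SD 0.061). The most variable beside Rps4l (SD 0.237) were Rpl32l (0.229) and Rpl6 (0.220). On all 7 K289R arrays Rpl41 lay below its WT mean, at a difference of only −0.058 ± 0.041.

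Some members with other known roles were taken from the rest by those roles, outside the rule for named genes. Rpl5 and Rpl11, which bind Mdm2 together with 5S ribosomal RNA when ribosome assembly is disturbed, differed by −0.039 ± 0.102 and −0.022 ± 0.074. On the brighter probe set that also names other genes Rpl5 was at −0.17 ± 0.111. Rps14, a gene lost in a human myelodysplastic syndrome, differed by −0.11 ± 0.087, and Rps3, which also takes part in DNA repair, by −0.084 ± 0.055. Rps25, needed for translation from several viral internal entry sites, had levels of 8.59, 8.65 and 9.07 in K289R, against a lowest value of 8.79 and a median of 8.86 in WT. Of its K289R arrays 4 of 7 lay below the lowest WT array and the highest lay above all WT arrays, with a difference of −0.12 ± 0.076. Rpl10a differed by −0.10 ± 0.076 and Rpl22, which also binds viral RNA, by −0.099 ± 0.060.

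With probe sets of a single symbol, the direction of the means went with signal level. At or above the members' median level of 10.17, all 32 brighter members had lower means in K289R, with differences from −0.17 to −0.015 and a median of −0.083. When a gene's own probe sets were averaged, 28 of the 32 were lower, with a median of −0.073. Of the 31 dimmer members 22 were lower and 9 higher, with a median of −0.029. This contrast depended on the probe sets, since with those that name several genes 28 of the same 31 were lower, with a median of −0.061. Among all genes tested at levels of 10 to 12 the share with lower means was 51.7%, against 18 of 18 members there. At levels of 12 to 14 it was 59.3%, against 14 of 14 members. At 8 to 10 it was 49.1%, against 10 of 13 members, and at 6 to 8 it was 54.3%, against 12 of 18. Levels of different probe sets are not on one scale of transcript number, so the split orders signals and not genes.

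**Figure D3:**
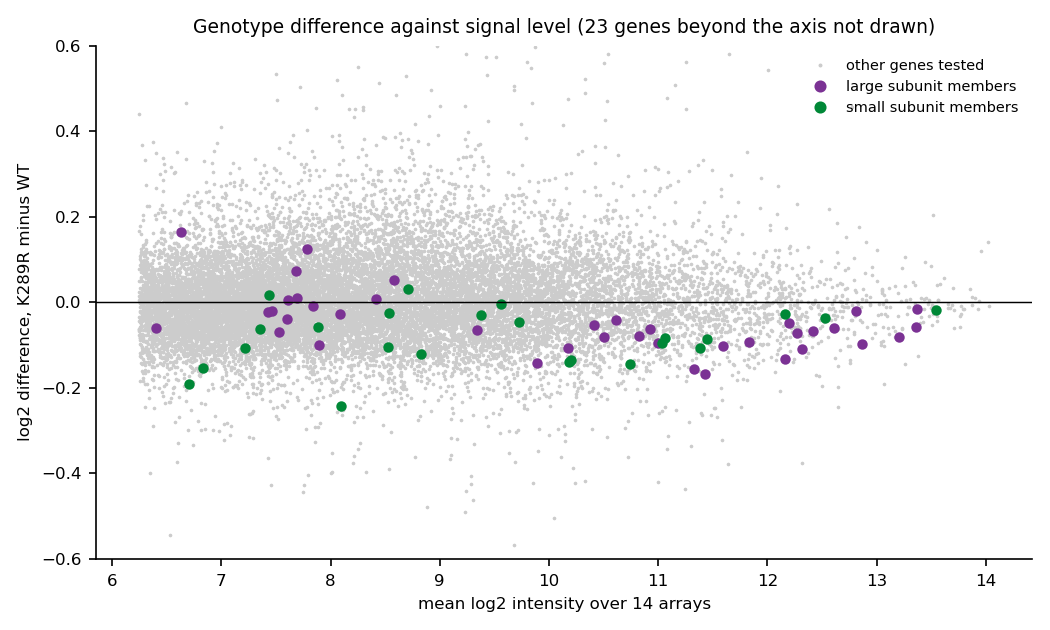
Mean log2 level over 14 arrays (x axis) against the difference K289R minus WT in log2 (y axis) for the tested genes, with the 63 members marked by subunit and genes beyond the axis not drawn. Members above a level of 10.17 all lie under 0, within −0.17 to −0.015, while the cloud of all genes is spread on both sides of 0.

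The brighter members also moved together from mouse to mouse. After each genotype's mean was taken away, the median pairwise correlation over 14 arrays was 0.663 among the brighter members (496 pairs), 0.091 among the dimmer members and 0.123 between them. These points share arrays and their scaling, so the values are a description. Of the brighter members 29 correlated above 0.5 with the mean of the other brighter ones, and of the dimmer members 7 did. Rpl8 (0.956) and Rpl7a (0.942) were closest to that mean. Rps23 (−0.611) and Rpl26 (−0.507) ran against it. Without K289R replicate 5 the median among the brighter members was 0.519. A pyrimidine run of at least 8 bases was present in 44.4% of the 27 windows of brighter members and 46.7% of the 30 windows of dimmer members. CCGGAAG was present in 29.6% of the brighter and 46.7% of the dimmer windows, and GGGCGG in 63.0% and 33.3%, and none of these shares was tested.

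**Figure D4:**
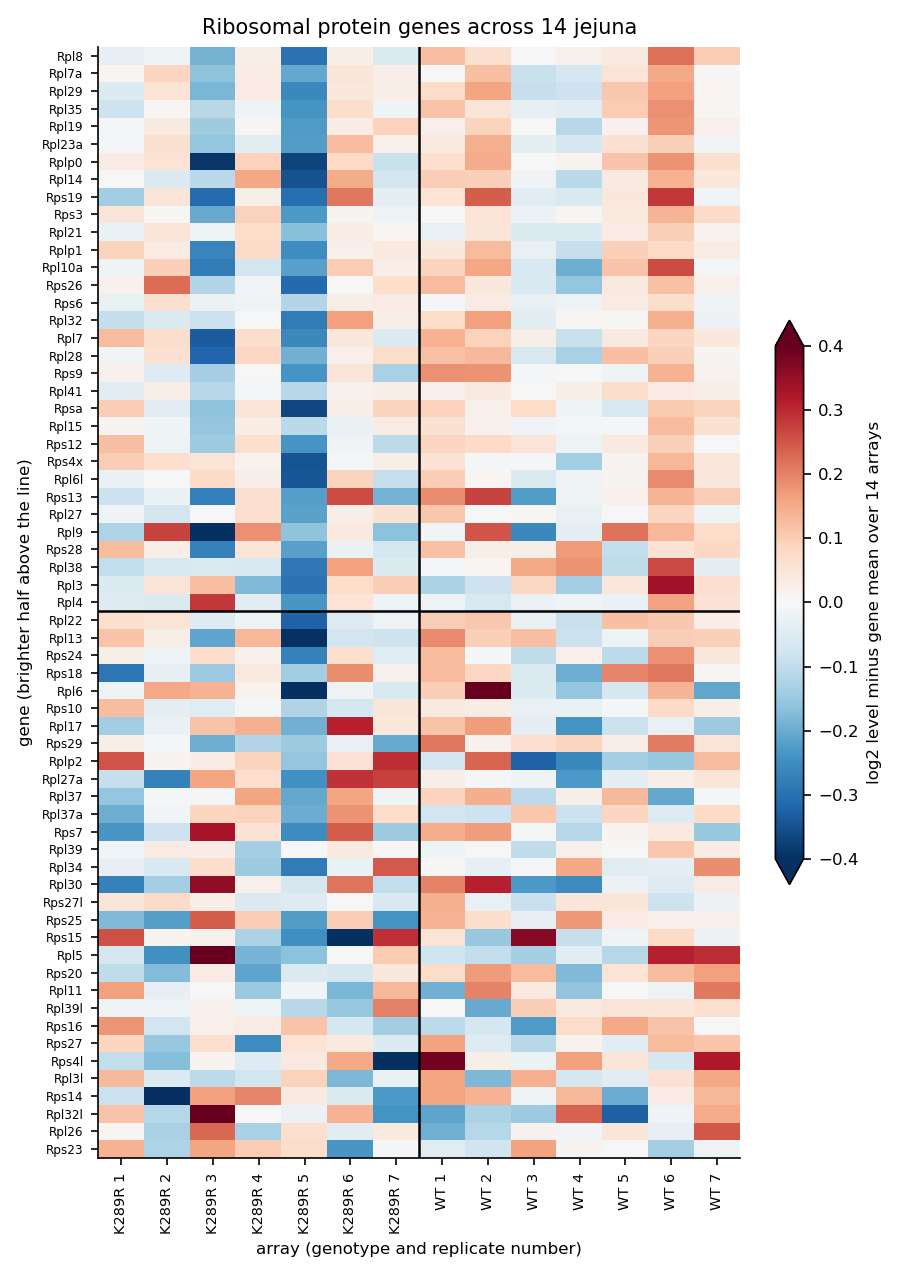
Log2 level of each tested member (rows, brighter members above the line, each group ordered by its correlation with the mean of the brighter members) on each array (columns, K289R left of WT), as the difference from the gene's mean over 14 arrays. The mean over the brighter members was lowest on K289R replicate 5 (−0.245), next lowest on K289R replicate 3 (−0.143) and highest on WT replicate 6 (0.146).

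The values depended on K289R replicate 5. The mean deviation of the 63 members on an array was −0.186 lowest, −0.016 median and 0.038 highest in K289R, against −0.038, 0.048 and 0.094 in WT. The lowest K289R value was that of replicate 5, on which 55 members lay below their own mean, and the other 6 K289R arrays, at −0.031 to 0.038, overlapped with WT. For the brighter members alone K289R replicate 3, at −0.143, also lay below the lowest WT array (−0.040). The remaining K289R arrays, at −0.013 to 0.060, lay within the WT range of −0.040 to 0.146. Without replicate 3 all 32 brighter members were still lower, with a median of −0.066. Replicate 5 was the lowest K289R array for 32 members and the lowest of all arrays for 29. Without it 47 of 63 members had lower means, the median difference was −0.030, and 28 of the 32 brighter members were lower with a median of −0.053. Rps29 then differed by −0.18 and Rpl8 by −0.12.

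Among the 26 named members, leaving out replicate 5 made 6 differences over 1.5 times smaller, 2 over 1.5 times larger and turned 3. The smaller ones were Rpl13 (−0.087), Rplp1 (−0.037), Rpsa (−0.033), Rpl6l (−0.028), Rpl39l (−0.012) and Rps6 (−0.0011). Rpl17 (0.11) and Rpl27a (0.098), both higher in K289R, became larger. Rps4x turned to 0.027, Rps27l to 0.0043 and Rpl6 to 0.00051, against −0.070 ± 0.105 for Rpl6 with all arrays. Of the members taken by role, Rpl5 was at −0.015, Rps3 at −0.053 and Rpl22 at −0.053 without that array. The SD was larger in K289R than in WT for 51 members with replicate 5 and for 40 without it. The median SD was 0.146 in K289R and 0.093 in WT, and 0.114 in K289R without replicate 5. WT replicate 6 was the highest WT array for 25 members.

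**Figure D5:**
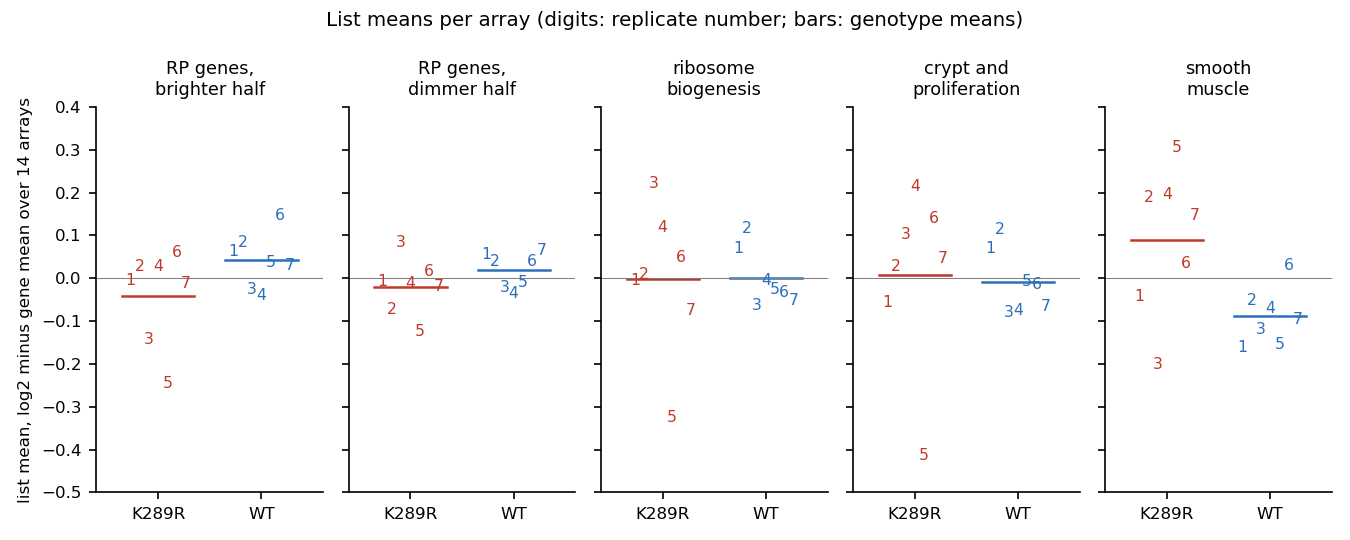
Mean deviation in log2 (y axis) on each array, K289R left of WT, for the brighter and dimmer members and for lists of other genes; digits are replicate numbers and bars genotype means. K289R replicate 5 is lowest for the brighter members (−0.245), the dimmer members (−0.125) and the crypt and proliferation genes (−0.413), and highest for smooth muscle genes (0.305).

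Markers of other cell types stood out on the same array. On replicate 5 the mean of 17 crypt and proliferation genes was −0.413, against −0.057 to 0.214 on the other K289R arrays and −0.080 to 0.114 in WT, and the mean of 12 smooth muscle genes was 0.305, against −0.202 to 0.196 on the other K289R arrays and −0.162 to 0.029 in WT. Over all arrays smooth muscle genes were higher in K289R for 10 of 12 (median 0.21), fibroblast genes for 9 of 9 (0.20), B cell genes for 8 of 8 (0.14) and T cell genes for 8 of 9 (0.29), none of them past the adjusted threshold. At an unadjusted p under 0.05 in limma, 7 smooth muscle and 5 fibroblast genes were higher, and 0 B cell and 0 T cell genes. The share of all genes higher at that level was 4.43%. The crypt and proliferation genes were higher for 11 of 17 (0.017), and for 14 of 17 (0.087) without replicate 5. Enterocyte genes were lower for 7 of 11 (median −0.018), and for 8 of 11 (−0.033) without replicate 5. These 11 genes had levels of 12.45 to 13.94, among the brightest signals on the arrays. When the smooth muscle mean entered the fit, 43 of 63 members were lower, with a median of −0.048. The brighter members were then lower for 29 of 32 (median −0.088) and the dimmer members for 14 of 31 (median 0.0093). When the crypt mean entered it instead, 56 were lower, with a median of −0.069. The part of these cell types in the result was not tested beyond these fits.

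Genes that share the TOP motif or the work of making ribosomes were set beside the members. Of the 16 tested TOP genes outside the members, 11 were lower in K289R, with a median of −0.047, and none passed the threshold. Without K289R replicate 5, 9 of the 16 were lower, with a median of −0.017, and the mean difference of the list was 0.014, against −0.013 with that array. Fau, whose product is processed to the small subunit protein eS30, is itself a ribosomal protein gene that the choice by symbol left out. It counts among the lower genes of this list, at −0.099 ± 0.039. Eef1d, a subunit of elongation factor 1, differed by −0.11 ± 0.055, while the histone chaperone gene Nap1l1 differed by 0.25 ± 0.089. Of 27 genes listed as initiation factors 15 were lower (median −0.012), with Eif2b2 at −0.10 ± 0.057 and Eif3k at −0.089 ± 0.061. Eif4ebp2, at −0.12 ± 0.079, is also counted as lower, though it encodes a binding protein of eIF4E and not an initiation factor. Without replicate 5, 12 of the 27 were lower (median 0.0082). Ribosome biogenesis factors were lower for 16 of 34 (median 0.0064), among them Rrs1 (−0.16 ± 0.052), Rrp12 (−0.15 ± 0.051) and Nop2 (−0.16 ± 0.084). Without replicate 5, 11 of the 34 were lower (median 0.057). RNA polymerase I genes, which serve ribosomal RNA synthesis, were lower for 14 of 16 (median −0.051), with Taf1d at −0.18 ± 0.080, Taf1c at −0.14 ± 0.068 and Taf1b at 0.28 ± 0.082. Without replicate 5, 9 of the 16 were lower (median −0.020). Of 16 genes listed as regulators of ribosomal protein genes 12 were lower (median −0.047), with Mycn at −0.11 ± 0.057, Tsc2 at −0.088 ± 0.050 and Gabpa at 0.078 ± 0.062. Without replicate 5, 10 of the 16 were lower (median −0.030). The list is not of regulators alone. It holds the ribosomal protein paralog Rpl7l1 (−0.053 ± 0.060) and the RNA polymerase I subunit gene Znrd1 (−0.054 ± 0.059), both counted as lower. No gene of these lists passed the adjusted threshold in limma.

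Letting in the probe sets that name several genes gave 75 members, of which 69 were lower in K289R, with a median of −0.070. Of these, 12 of the 63 members were read from another probe set, and 9 of the 12 added genes had lower means. At an unadjusted p under 0.05 in limma there were 12 lower members and 1 higher one, Rps15a, at 0.14 ± 0.063. Of all 19639 genes tested in this setting, 813 were lower and 846 higher at that level. A lower mean at any p was found for 52.7% of them. The lowest adjusted p of a member was 0.315, and no member passed the threshold. Of the 24 tested members with more than 1 probe set of their own, 9 had another probe set of the opposite sign, among them Rpl35 and Rpl3.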

How the data were processed

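Jejunal RNA of 7 LRH-1 K289R and 7 LRH-1 WT mice was measured on Affymetrix arrays, 1 array per mouse, with groups taken from the titles and genotype labels. The deposited values are linear intensities of 41345 probe sets, made with Affymetrix Expression Console per the submitters' processing notes. How background and normalization were handled, and by which version, is not stated in these sources. The design assumed log2 values or, if linear, a log2 transform, which was applied. Median intensities of 168 to 174 show arrays already on 1 scale, so none was added, and a global shift in RNA amount would not be seen.

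Probe sets with 1 symbol were kept, and genes dimmer on average than log2 6.25 (intensity 75.9), set at the 25th percentile over probe sets, were dropped. The test was limma's lmFit and eBayes (limma 3.58.1, R 4.3.3), 2-sided, adjusted by Benjamini-Hochberg over 18010 genes, beside exact permutation tests over 3432 splits (smallest p 0.000583). The steps were tested on simulated data. Members named are the 12 with the smallest p, the 4 with the largest difference each way and the 3 most and least variable. Rplp0, Rplp1, Rplp2, Rpsa and the paralogs are named too. Of each other list the 3 genes with the smallest p are named, except that lists of cell types are given by counts alone. No counts are given for the Paneth, goblet, plasma cell, pancreatic acinar and distal small intestine lists. Rpl3, Rpl5, Rpl7a, Rpl10a, Rpl11, Rpl22, Rpl26, Rpl30, Rpl37a, Rps3, Rps14, Rps15a, Rps16, Rps23 and Rps25 were named after their values were seen. So were Rpl7l1 and Znrd1 of the list of regulators. The other lists without K289R replicate 5 were an alternative added after seeing the data. Members, lists and alternatives were chosen with earlier results of these data known. Same-numbered arrays of the genotypes did not deviate together, so the numbers were not treated as pairs.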

Additional observations from a re-analysis of the deposited data

Results flagged for a closer look

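Some single arrays stood far from the other arrays of their genotype, by Dixon's test at the 95% level over 7 arrays. That level marks about 1 in 20 of independent sets, but the members share their arrays, so the share marked here cannot be read against it. Over 63 members in both genotypes 11 of 126 sets of arrays were so marked (8.73%), and 6 of them were low values on K289R replicate 5. On that array Rpl6 was at 7.07, Rpl6l at 10.48 and Rps4x at 11.82, each below the other K289R arrays. The mean deviation of all members there was −0.186, that of the large subunit −0.204 and that of the TOP genes outside the members, Fau included, −0.169. Rps4l was at 7.38 on K289R replicate 7 and Rpl39 at 7.71 on K289R replicate 4. In WT, Rpl27a was at 8.35 and Rps20 at 6.66 on replicate 4, and Rpl39l at 7.89 on replicate 2. All of these are log2 levels or mean log2 deviations, all are low, and their causes were not tested.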

How the results depend on the processing

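No ribosomal protein gene passed the adjusted threshold under any of the 31 alternatives. Leaving out each array in turn gave 47 to 57 members with lower means and median differences of −0.080 to −0.030, lowest in size without K289R replicate 5. The medians ran from −0.078 to −0.028 for the large and from −0.10 to −0.058 for the small subunit. Under the other settings over all members the median ran from −0.070, with several-symbol probe sets, to −0.044, with array weights. The count of all genes past the threshold, 8, was 14 with array weights, 16 with the crypt mean as covariate, 5 with the B cell mean, 5 without the 4 arrays with high Fabp6, 5 without K289R replicate 5 and with the crypt mean, 18 at an adjusted p under 0.1, and 4 to 14 with an array left out. With the replicate number as a block, which the pairing check did not support (same-number correlations −0.15 to 0.17), 0 genes passed, and the members' median was −0.063 with 54 lower.

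Of 26 named members 9 turned direction under at least 1 setting. With array weights Rpl6 was 0.017, Rps27l 0.0085 and Rps4x 0.0033. With the smooth muscle mean Rpl6 was 0.010, Rps27l 0.039 and Rps4x 0.046. With the crypt mean and without K289R replicate 5, an alternative chosen after seeing the data, Rpl17 was −0.018, Rpl39 0.0035, Rpl39l 0.047, Rps27l 0.0075 and Rps4x 0.032. With several-symbol probe sets Rpl27a was −0.048 and Rplp2 −0.090, with the mean over probe sets Rpl35 was 0.0097, and without high-Fabp6 arrays Rps27l was 0.0031. With an array left out Rpl39 ran from −0.027 to 0.012, Rpl6 from −0.11 to 0.0068, Rps27l from −0.019 to 0.019 and Rps4x from −0.053 to 0.027. The causes were not tested. The number of arrays, and signals close to background for the dimmest members, limit the precision.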

Other observations

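The mitochondrial ribosomal proteins, which build a separate ribosome inside the organelle, were lower in K289R for 52 of 71 tested genes, with a median difference of −0.037. None passed the adjusted threshold. Mrps14 differed by 0.29 ± 0.067 (SE, adjusted p 0.169 in limma), Mrps34 by −0.20 ± 0.065 and Mrps18c by −0.17 ± 0.057. Their mean deviation was also lowest on K289R replicate 5, at −0.124, but nearly as low on K289R replicate 7, at −0.122. Without replicate 5, 42 of 71 were lower, with a median of −0.013. The proteasome, a complex that degrades proteins, was lower for 12 of 29 genes, with a median of 0.011, and for 8 of 29, with a median of 0.042, without that array. Psmd1 differed by 0.18 ± 0.090, Psma3 by 0.11 ± 0.059 and Psmd14 by 0.099 ± 0.055.

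K289R replicate 3 had opposite values in the brighter and dimmer members, with mean deviations of −0.143 and 0.084. The lists of ribosome biogenesis factors and initiation factors had their highest array means on the same array, at 0.221 and 0.081.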
